A study of Mus musculus with 2 samples.

Results

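Mir21a, the mouse gene of the microRNA miR-21, was 1 of 1973 microRNA genes counted in the embryonic mouse liver. It was found by the Ensembl identifier that GENCODE pairs with the symbol Mir21a (ENSMUSG00000065455.1), and it was chosen by its level on the strand of the gene in these same libraries, where it ranked among the most abundant genes, so that level and its rank are given as a description with no test. The libraries held short RNA (under 30 nucleotides, per the labels) from whole livers of healthy B6NCrl embryos at embryonic day 11.5, both sexes mixed. There were 2 libraries in 1 group, called biological replicates 1 and 2 in the labels. Replicate 1 came from 109 embryos, and replicate 2 from pooled embryos of a number the labels do not give. No treatment, mutation or second tissue was part of the design, so the questions it holds are how abundant each microRNA was in the liver of this age, and by how much 1 pool departed from the other.

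MicroRNAs are cut from a hairpin in a longer transcript, and 1 arm or the other of the hairpin is loaded into Argonaute, where the bases from position 2 to 8 (the seed) select target messenger RNAs. The miR-21 microRNA is known for repressing brakes on growth and survival, among them Pdcd4 and Spry1, and for rising in tumours, in scarring tissue and in the regenerating rodent liver. Its gene lies at the end of Vmp1, which encodes a membrane protein of the endoplasmic reticulum needed to form autophagosomes, and in human cells it is also transcribed from a promoter of its own inside that host gene.

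The mature sequences are shown because they decide which reads can be told apart from other miR-21 genes. All are from RefSeq (GRCm38.p6), 5′ to 3′, with the seed in capitals.
miR-21a-5p: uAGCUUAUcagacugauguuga
miR-21a-3p: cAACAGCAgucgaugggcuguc
miR-21b: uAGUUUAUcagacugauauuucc
miR-21c: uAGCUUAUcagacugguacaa
The 5p arm lies at chr11:86584120-86584141 on the minus strand and the 3p arm at chr11:86584082-86584103. The genes of miR-21b and miR-21c lie on chromosomes 3 and 8. Counted from 1 at the 5′ end of miR-21a-5p, miR-21b differed from it at 4 of 22 positions (C4U, G18A, G21U and A22C), and C4U falls in the seed. The miR-21c sequence differed at 5 of 21 positions (A16G, G18A, U19C, U20A and G21A), all outside the seed. Among the mature sequences of the RefSeq table, which is not complete, miR-21c alone shared the seed of miR-21a-5p. None shared that of miR-21a-3p. Mir590 was also listed as having the seed of miR-21a-5p but had no entry there, so its sequence was not compared. The longest stretch of miR-21a-5p found in any of 1893 other counted precursors was 15 bases, in Mir21c, and for miR-21a-3p it was 10 bases, in Mir1191 and Mir744. Each full arm was found in transcripts of 2 annotated genes, Mir21a itself and Vmp1, which overlap at this site.

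The counted gene spans 92 bases on chromosome 11, from 86584067 to 86584158 of mm10 on the minus strand, and lies in the 3′ UTR of Vmp1. In GENCODE M21 it sits in exon 12 of 12 of the Vmp1 transcript that runs from 86683836 down to 86583865, 1152 bases past the end of the coding sequence and 202 bases before the end of the transcript. Of 8 annotated Vmp1 transcripts, 1 had Mir21a in an exon. Among the 104 genes with at least 1000 CPM in both libraries (CPM is the count per 1000000 counts assigned to genes on their own strand), 2 lay wholly in a 3′ UTR. The other was Mir324 in Dvl2, at 4734 CPM on average and rank 51. Of the rest, 43 lay in introns, 22 in other exons and 37 in no other gene on the same strand. An overlap with an exon of any annotated host transcript counted as exonic, so such a gene can be intronic in other transcripts.

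**Figure D1:**
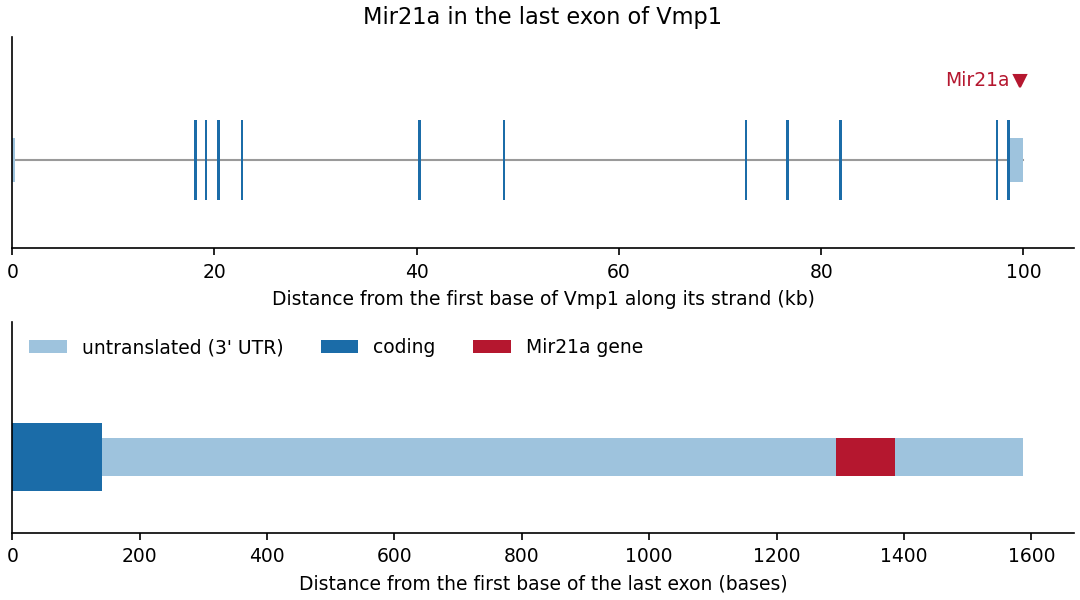
Position of Mir21a in the Vmp1 transcript that contains it, drawn to scale along the strand of both genes. The upper panel gives kilobases from the first base of the transcript (short exons are drawn at a minimum visible width), the lower panel bases from the start of exon 12; Mir21a lies 1152 bases past the coding sequence and 202 bases before the end.

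Mir21a was one of the leading microRNA genes of the liver in both pools. It had 98092 counts in replicate 1, which is 29328 CPM or 2.93% of the assigned counts (95% exact Clopper-Pearson interval 2.91 to 2.95), and ranked 6. In replicate 2 it had 35594 counts, which is 22464 CPM or 2.25% (2.22 to 2.27), and ranked 10. It averaged 25896 ± 4854 CPM (SD, n = 2), rank 8 by mean, and the SD was 18.7% of the mean. The level was higher in replicate 1, and the intervals, which cover counting error only, did not overlap. Its level was 108 times the median of detected genes in replicate 1 and 95.4 times in replicate 2, where detected means 10 counts or more in each library. Of all 1973 genes 347 were detected (17.6%), and 104 reached 1000 CPM in both libraries (5.27%); Mir21a is one of these by the way it was chosen. In livers taken whole, fewer cells of a type and less RNA per cell cannot be told apart, and the counts do not show which cells held miR-21.

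All reads at the gene fell on its own strand. The opposite strand had 0 reads in both libraries, which allows up to 0.00306% of the Mir21a reads in replicate 1 and 0.00843% in replicate 2. The files give 1 count for the whole gene, so the 5p and 3p arms were not separated. The relatives by name were not seen: Mir21b and Mir21c had 0 counts in both libraries. A 0 is compatible with as many as 3 counts, or 0.897 CPM in replicate 1 and 1.89 CPM in replicate 2. Reads mapping to several places (22.0% of all reads in replicate 1 and 22.6% in replicate 2) were not assigned to genes. Mir21a shares no 20 consecutive bases with another counted gene, while 907 of the counted genes do share such a stretch, so genes with close copies can stand too low beside it. How much this moves its rank was not tested.

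On the strand of the gene, Mir21a followed a leading group of 4 genes that stood above it in both libraries. Its order among its nearest neighbours turned between the libraries. The 4 genes were the endothelial Mir126a, Mir17 of the cluster that promotes proliferation, Mir335 in the imprinted gene Mest, and Mir122, the leading microRNA of hepatocytes. By contrast, 1962 genes lay below it in both, 1 lay above it in replicate 1 only and 5 in replicate 2 only. The ranges of 8 genes over both libraries overlapped that of Mir21a. Counting reads on either strand, the locus of Mir142b also stood above Mir21a in both libraries. Mir21a then ranked 7 in replicate 1 and 12 in replicate 2, where a further locus, not followed up here, also passed it. A read stands for 1 short RNA here, so levels were compared between genes without dividing by length; divided by the annotated length of the gene, Mir21a ranked 9.

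Among the 5 genes ranked just above, Mir335 stood clear of Mir21a, with 69209 CPM in replicate 1 and 54513 CPM in replicate 2. Mir122 had 30679 and 34487 CPM in replicates 1 and 2, so Mir21a stood at 0.956 of its level in replicate 1 and 0.651 in replicate 2. Mir30e, of the miR-30 family, had 37299 and 19786 CPM in replicates 1 and 2, on either side of both Mir21a values. Mir99a had 24269 and 30873 CPM, and Mir322, the mouse form of miR-424, had 22729 and 32295 CPM, in replicates 1 and 2. These 2 genes were below Mir21a in replicate 1 and above it in replicate 2.

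Of the 5 genes ranked just below, Mir130a had 23239 and 26007 CPM in the same order of libraries, and its position against Mir21a also turned. Mir20a, of the Mir17 cluster, had 29234 and 18331 CPM; Mir21a had 1.00 times its level in replicate 1 and 1.23 times in replicate 2. Mir26b had 22991 and 22264 CPM, within the range of Mir21a in replicate 1 and just under it in replicate 2. Mirlet7g, a let-7 gene, had 21553 and 20568 CPM, below both values of Mir21a. Mir411 spread most widely, with 12012 CPM in replicate 1 and 25847 CPM in replicate 2, and its precursor has a stretch of 20 bases in common with that of another gene.

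**Figure D2:**
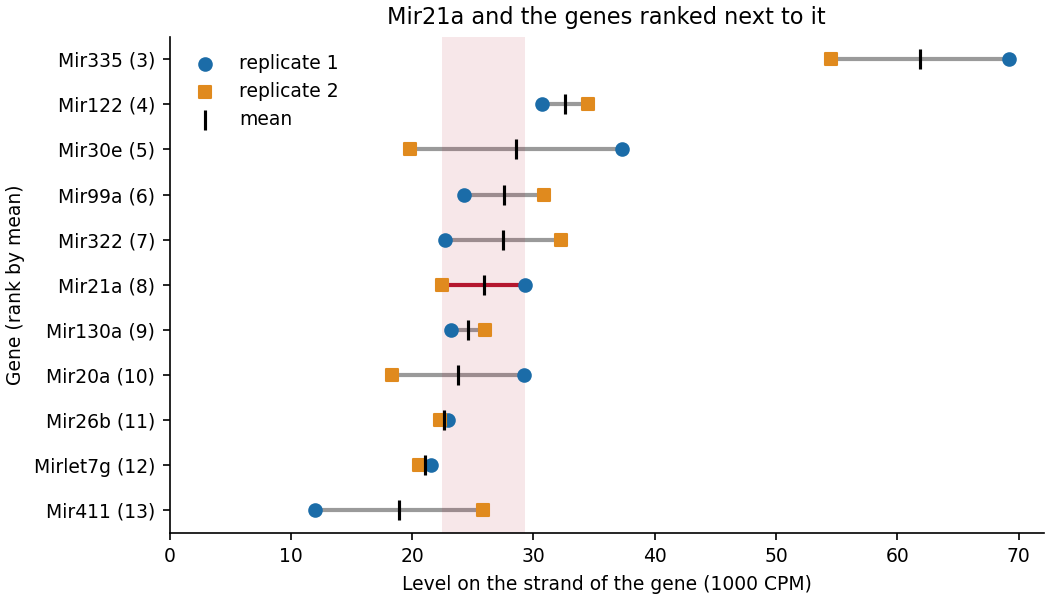
Level in units of 1000 CPM (horizontal axis) of Mir21a and the 5 genes ranked on each side of it by mean, with replicate 1 as circles, replicate 2 as squares and the mean as a tick. The shaded band is the range of Mir21a, 22464 to 29328 CPM; within this plot the values of Mir335, Mir122 and Mirlet7g lie wholly to 1 side of it, and those of Mir30e lie on either side.

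The genes nearest to Mir21a in level, by Euclidean distance of log2(CPM + 1) over the 2 libraries, were Mir20a at 0.293, Mir26b at 0.351, Mir30e at 0.392, Mir130a at 0.397 and Mirlet7g at 0.462. With 2 libraries this measures how close their levels were and no more. Mir20a and Mir30e were, like Mir21a, higher in replicate 1, at 1.59 and 1.89 times their level in replicate 2. Mir26b and Mirlet7g differed less, with ratios of 1.03 and 1.05, and Mir130a ran the other way at 0.894.

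Mir21a was 1.31 times as high in replicate 1 as in replicate 2 (exact binomial interval 1.29 to 1.32, counting error only), a log2 ratio of 0.38. This lay near the middle of the differences between these pools. Among the 257 genes whose count averaged 100 or more, the median difference was 1.28-fold in either direction, and 119 of them (46.3%) differed more than Mir21a did. Among the 104 genes with at least 1000 CPM in both libraries the median was 1.25-fold, and 41 differed more. Mir21a was not among the 17 of 257 genes (6.61%) that lay at least 2-fold apart, 7 of them higher in replicate 1 and 10 higher in replicate 2. With 1 library per pool this has no replicate check, and nothing in the labels says what set the pools apart beyond the number of embryos given for replicate 1.

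**Figure D3:**
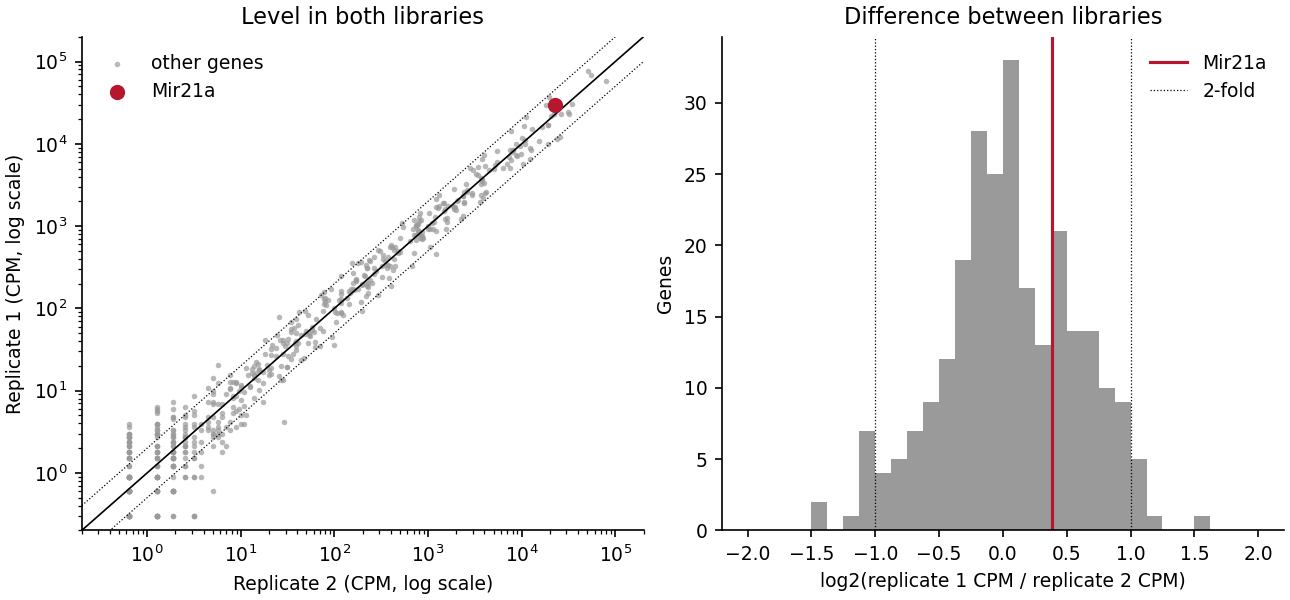
Left, the level of each gene with counts in both libraries, replicate 1 against replicate 2, in CPM on log axes, with lines at equality (solid) and 2-fold (dotted). Right, the number of genes by log2 ratio of replicate 1 over replicate 2 among the 257 whose count averaged 100 or more; Mir21a, at 0.38, lies inside the 2-fold lines.

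Against other microRNAs known for promoting growth or rising in tumours, Mir21a was second in level. This list held 19 counted genes without Mir21a, and all 19 were detected, against 17.6% of all counted genes. Their median was 811 CPM, beside 0 CPM over all counted genes and 264 CPM over detected genes, and 9 reached 1000 CPM in both libraries. Mir17 was above Mir21a in both libraries and the other 18 were below it in both, as were 1962 of all 1973 counted genes. In replicate 1, however, Mir21a had 98092 counts and Mir20a 97778, a ratio of 1.00 (exact binomial interval 0.994 to 1.01). Mir21a stood at 0.379 of the level of Mir17 in replicate 1, where Mir17 had 77281 CPM, and at 0.440 in replicate 2, where it had 51029 CPM. Mir93, a relative of Mir17 within Mcm7, had 16236 and 10571 CPM, and Mir21a was at 1.81 and 2.13 times that, in replicates 1 and 2. Together these 19 genes held 16.3% of the counts in replicate 1 and 11.8% in replicate 2. In 3 of them the precursor matches another over 20 bases or more, which leaves their levels uncertain.

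MicroRNAs known to be induced by inflammatory or stress signals, a property miR-21 shares, all lay below Mir21a in both libraries. This also held for 1962 of all 1973 counted genes, so it does not set the list apart. Of the 14 counted genes of this list 12 were detected, against 17.6% of all counted genes, and 1 reached 1000 CPM in both libraries, against 5.27% of all. Their median was 158 CPM, beside 0 CPM over all counted genes and 264 CPM over detected ones. Its highest member was Mir223, a microRNA of myeloid cells, with 4934 and 5087 CPM in replicates 1 and 2, and Mir21a had 5.94 and 4.42 times its level. Mir125b-1, known for restraining blood cell differentiation, followed with 762 and 835 CPM, and Mir31 with 480 and 500.5 CPM. Mir125b-1 is one of 5 genes on this list with a precursor that matches another over 20 bases or more, which leaves its level uncertain. The 14 genes together held 0.790% of the counts in replicate 1 and 0.773% in replicate 2, so Mir21a alone had 3.71 and 2.91 times their sum. Most of that sum was Mir223. The lists overlap, as Mir31, Mir155, Mir221 and Mir222 are also on the growth list. These lists were written with earlier results of the same libraries known and describe these libraries only.

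**Figure D4:**
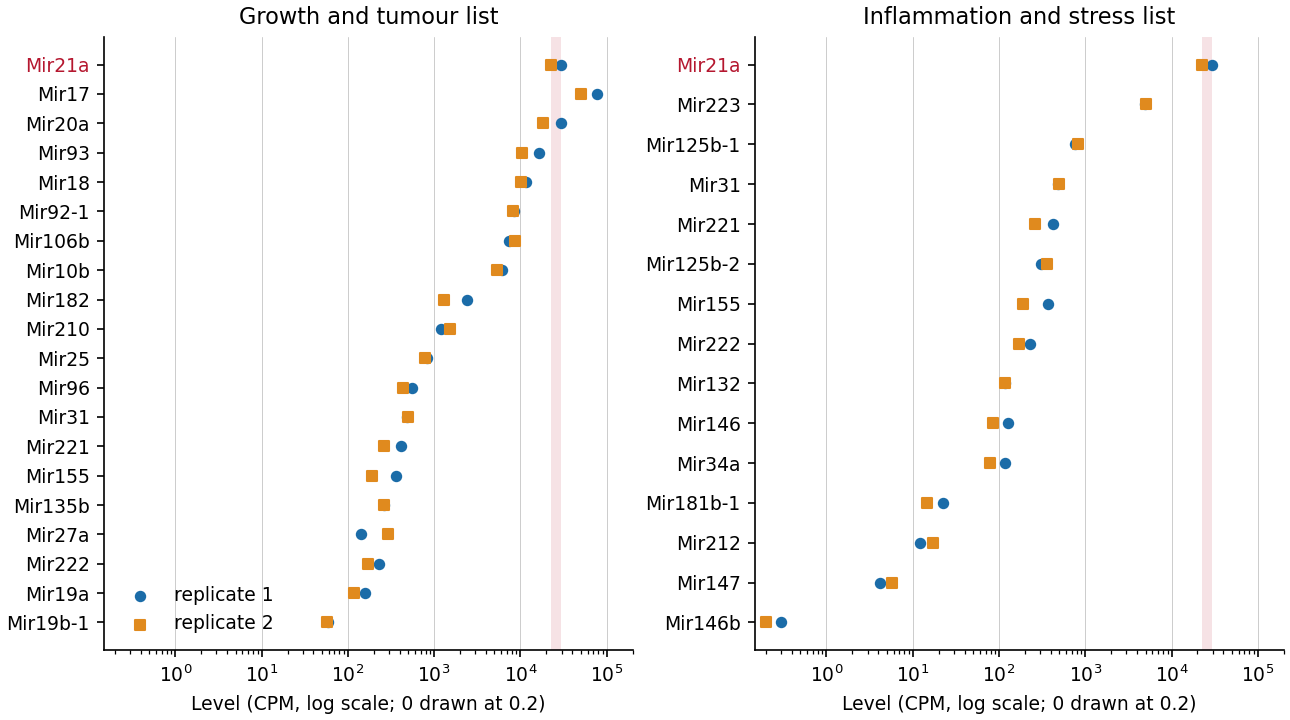
Level in CPM on a log axis of Mir21a (top row, shaded range) and of the counted genes of the growth and tumour list (left) and the inflammation and stress list (right), replicate 1 as circles and replicate 2 as squares. Only Mir17 lies above the Mir21a range in both libraries, and all 14 genes on the right lie below it. Of all 1973 counted genes, 1962 were below Mir21a in both libraries.

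The counts of microRNAs known from cell types are set beside Mir21a here, against a share of 17.6% detected over all counted genes. The hepatocyte list had 4 of 6 counted genes detected and held 3.48% of the counts in replicate 1 and 3.81% in replicate 2, nearly all of it Mir122, so Mir21a alone had 0.843 and 0.590 times its sum. The erythroid list (3 of 3 detected) held 0.833% and 1.13%, the leukocyte list (4 of 5) 1.04% and 0.813%, and the list of smooth muscle and mesenchyme (5 of 5) 2.20% and 3.29%. The endothelial gene Mir126a held 5.74% and 8.01%. Markers of striated muscle (4 of 7 detected) held 0.0880% and 0.0786% and those of brain (3 of 8) 0.0314% and 0.0217%. Of the muscle genes, Mir208b, Mir208a, Mir499 and Mir206 averaged 328, 214, 163 and 128 CPM. Mir1a-1, Mir133a-1 and Mir133a-2 were at 0 in both libraries. Both Mir133a genes and all 8 brain genes match another precursor over 20 bases or more, which leaves their low counts uncertain. Mir1a-2, also on the muscle list, was not found among the counted genes, so a match of Mir1a-1 to it was not checked. The leukocyte share leaves out the locus of Mir142b, where 140377 reads in replicate 1 and 62714 in replicate 2 lay antisense to the gene as counted. The symbols Mir142 and Mir142a, also on the leukocyte list, were not found among the counted genes. Under a count of both strands, added once the values were known, the leukocyte list had 4.77% in replicate 1 and 4.31% in replicate 2. The summed levels rest on few genes: Mir122 was 0.890 times as high in replicate 1 as in replicate 2. Of the other detected hepatocyte genes, Mir192 had a ratio of 0.595, Mir148a one of 1.41 and Mir194-2 one of 1.75. The precursor of Mir194-2 matches another over 20 bases or more. Of the mesenchymal genes, Mir143 had a ratio of 0.486 and Mir214 one of 1.13. The erythroid genes also differed, with ratios of 0.765 for Mir451a, 0.379 for Mir144 and 1.08 for Mir486. The part of any cell type in the level of Mir21a was not tested.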

How the data were processed

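Short RNA from 2 libraries of 1 group was analysed. The authors deposited whole-number counts of reads per gene, not normalised, for either strand, the strand of the gene and the opposite strand. Reads were aligned to mm10 and counted with GENCODE M4, per the deposited file descriptions; the aligner, counter and trimming are not given in the sources used here. The 4 summary classes that name no gene made up 73.8% and 71.0% of reads in replicates 1 and 2 and stayed out of the totals, which were 3344673 and 1584499 assigned counts. CPM, ranks and ratios were computed here from the strand of the gene. Of 1973 identifiers, 1894 matched GENCODE M21 (same assembly). Sequences came from RefSeq.

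Nothing was tested, since 1 group holds no comparison; p-values were not computed. The member, the lists and the alternatives were chosen with earlier results of these data known. Genes named were Mir21a, the 5 ranked on each side of it, the 5 most alike, the miR-21 relatives, the 3 highest of each list and the nearest detected gene on each side on the chromosome. Mir590, put on the seed list as sharing the seed of miR-21a-5p, was not found among the counted genes and was not analysed here. Mir324, Mir10a, Mir126a, Mir142b, Mir1191, Mir744 and the cell type markers fall outside this rule and were named after their values were seen. Intervals and floors cover counting error only, since the sources describe no molecular identifiers. Whether the pools are independent beyond their label is not stated. Fold calculations were tested on simulated data. Scalings used edgeR 4.0.16 and DESeq2 1.42.0 in R 4.3.3; tables and intervals were made with scipy 1.17.1, pandas 2.3.3 and numpy 2.4.6 under Python 3.11.15, and figures with matplotlib 3.10.9.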

Additional observations from a re-analysis of the deposited data

Results flagged for a closer look

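Reads on the strand opposite to Mir142b, a column outside the main measurement, stood above what a count of 0 allows, with 140377 reads in replicate 1 and 62714 in replicate 2. The strand of the gene held 2 and 3 reads. Counting either strand, Mir21a had 26726 and 20312 CPM in replicates 1 and 2, below the 38247 and 35789 CPM of this locus.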

How the results depend on the processing

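The mean level of Mir21a stayed within 1 SD of 25896 CPM with reads on either strand, without Mir126a in the total, and with genes sharing no 20 bases (23519 to 28206). Over all reads, unassigned ones included, it was 7099 per 1000000, by construction. Without replicate 1 or 2 it was 22464 or 29328 CPM, and the rank 10 or 6. The rank by mean was 8 or 9 with the other gene sets and scales run. The length scale was chosen after seeing the data. The ratio between libraries ran from 1.30 to 1.32 with TMM, DESeq2 size factors and reads on either strand. The count of genes at least 2-fold apart, 17 of 257, moved with the minimum count: 42 of 376 (11.2%) at a mean of 10, 5 of 152 (3.29%) at 1000, and 136 of 575 (23.7%) with 1 count in both libraries. It was 17 or 18 under the other scalings and the either-strand column. With reads on either strand the mean share of Mir21a on its chromosome was 20.9% in place of 31.5%, and that of the leukocyte list 4.54% in place of 0.927%, as reads opposite to Mir142b joined the counts; both were chosen after seeing the data. No paired analysis was possible because the samples form a single group. At this depth Mir21b and Mir21c could lie below 0.897 CPM (replicate 1) or 1.89 CPM (replicate 2) and give no count.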

Other observations

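Chromosome 11 held 117 counted genes, 24 of them detected, and Mir21a made up 35.5% of their summed counts in replicate 1 and 27.5% in replicate 2. Under a count of both strands, added once the values were known, these shares were 23.5% and 18.4%, since the locus of Mir142b then had 140379 and 62717 reads, more than the 98092 and 35594 of Mir21a. On the strand of the gene, the next most abundant gene of the chromosome was Mir10a, a microRNA of the Hoxb cluster, with 15850 and 16442 CPM in replicates 1 and 2, and Mir21a was at 1.85 and 1.37 times its level. The nearest detected gene towards higher coordinates was Mir301, 529 kb away, with 2135 and 1216 CPM in replicates 1 and 2. Towards lower coordinates it was Mir193a, 6872 kb away, with 10.5 and 7.57 CPM. The counts of the genes between, on the strand of the gene, were under 10 in at least 1 library.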
